A study of Homo sapiens with 36 samples.

Results

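Transcripts of 7 surface antigens for which prostate cancer therapies have been designed, FOLH1, STEAP1, STEAP2, CD276, ERBB2, ERBB3 and PSCA, were followed through RNA-seq libraries of LNCaP, an established human prostate cancer line that responds to androgen. The 7 genes were chosen by name. They are the rows of the deposited table of 29872 genes whose Ensembl identifiers carry those symbols in GENCODE release 44. No measured value entered that rule, but the names were chosen with earlier results of these data known. LNCaP cells received vehicle, AU2-94 at 1 or 2 µM, atirmociclib at 1 or 2 µM, or ribociclib at 2 µM, and were collected after 24 h or 72 h, with 3 biological replicates in each of 12 groups and 36 libraries in all. AU2-94 and atirmociclib are described as inhibitors selective for CDK4, and ribociclib inhibits CDK4 and CDK6, kinases that drive cells out of G1. In the paper's kinase assays AU2-94 was the more selective. Atirmociclib inhibited CDK6, CDK1, CDK2, CDK7 and CDK9 more strongly than AU2-94 did. All cells came from the same unmodified line, and every difference below is therefore a difference between cultures of 1 line. A dose of 2 µM is also attached to the vehicle samples, with a meaning that is not given in the sources used here. Cells for 72 h were plated at a lower density than cells for 24 h, so time and plating density cannot be told apart.

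Each value is a normalised count, the reads assigned to a gene after the authors scaled the libraries to each other. A library held 20675156 to 22692555 normalised counts, and 19708 to 21405 genes were above 0. All 7 luminal prostate markers checked reached 10 normalised counts in every library, and together they summed to 74530 or more. Other lineages were low: 4 basal markers summed to at most 88.6, 6 neuroendocrine markers to at most 36, 4 leukocyte markers to at most 143.8, 3 endothelial markers to at most 712.6 and 4 fibroblast markers to at most 657.6. In these bulk libraries a smaller number of cells carrying a transcript and less transcript per cell cannot be told apart, and transcript levels are not surface protein.

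FOLH1 encodes prostate-specific membrane antigen, a folate-releasing carboxypeptidase that is also the target of radioligands used against prostate cancer. STEAP1 and STEAP2 are membrane proteins of a family of haem-containing metalloreductases, and the genes lie side by side. CD276, or B7-H3, is a ligand of the B7 immune checkpoint family. ERBB2, or HER2, is a receptor tyrosine kinase without a known ligand of its own, and ERBB3 binds neuregulins but has little kinase activity, so the pair signals as a heterodimer. PSCA is a small protein held in the membrane by a lipid anchor, of the LY6 family. In prostate cancer cells FOLH1 is known as a gene that androgen represses.

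On GRCh38, FOLH1 (ENSG00000086205) spans 11:49145092-49208638 on the minus strand with 23 merged exons. STEAP1 (ENSG00000164647) spans 7:90154456-90164829 with 6 merged exons, and STEAP2 (ENSG00000157214) follows 2761 bases further at 7:90167590-90238137 with 10, both on the plus strand. CD276 (ENSG00000103855) lies at 15:73683966-73714514, ERBB2 (ENSG00000141736) at 17:39687914-39730426 and ERBB3 (ENSG00000065361) at 12:56076799-56103505, all on the plus strand. PSCA is placed further on, with the gene it overlaps. The values are given per gene and do not separate isoforms. Which exons entered them is not given in the sources used here.

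Upstream sequence is shown for STEAP1 and STEAP2, neighbours whose transcripts rose together at 24 h and parted at 72 h under AU2-94, and for CD276, which moved with STEAP1. RefSeq promoter windows on GRCh38.p14 were held for 4 of the 7 genes (STEAP1, STEAP2, CD276 and ERBB2), and the lines below give the stretches of the 250 bases before a RefSeq start that lie outside every GENCODE exon, on the plus strand. The STEAP1 stretch is chr7:90154219-90154455, the STEAP2 stretch is chr7:90213570-90213819, before the second RefSeq start and inside the gene as GENCODE draws it, and the CD276 stretch is chr15:73684133-73684268, before the first RefSeq start. Capitals mark GC boxes (GGGCGG on either strand).
STEAP1: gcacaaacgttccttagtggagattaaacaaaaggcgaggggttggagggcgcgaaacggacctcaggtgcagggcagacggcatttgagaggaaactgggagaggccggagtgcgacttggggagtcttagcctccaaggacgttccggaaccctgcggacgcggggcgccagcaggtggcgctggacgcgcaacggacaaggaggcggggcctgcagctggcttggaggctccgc
STEAP2: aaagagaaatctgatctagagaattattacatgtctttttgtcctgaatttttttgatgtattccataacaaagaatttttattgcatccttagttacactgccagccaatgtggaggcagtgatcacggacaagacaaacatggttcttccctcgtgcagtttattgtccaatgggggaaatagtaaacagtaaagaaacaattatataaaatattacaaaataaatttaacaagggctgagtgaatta
CD276: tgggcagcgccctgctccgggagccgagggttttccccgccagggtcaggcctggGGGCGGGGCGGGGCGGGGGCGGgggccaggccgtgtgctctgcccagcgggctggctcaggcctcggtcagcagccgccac
The stretches shown differed in base composition. GC content was 64.1% for STEAP1, 32.8% for STEAP2 and 79.4% for CD276. Over 35116 promoter windows of 250 bases the median was 58% and the quartiles 46.4% and 68%. Over their full 250 bases the windows shown in part held 64.4% for STEAP1 and 80.8% for CD276. The window before the first STEAP2 start, with 50 bases outside exons, held 69.6%, so the low value belongs to the second start. The CD276 stretch held 4 GC boxes and its full window 7, a motif found in 42.6% of all windows. None of the 3 stretches held the E2F letters searched (TTTGGCGC, TTTCCCGC, TTTGGCGG or TTTCCCGG, 3.67% of windows), the CHR letters TTTGAA (13.3%) or the androgen receptor core AGAACA (12.4%), each searched on both strands. Other spellings of the E2F motif were not searched, so the result does not show that a stretch, that of STEAP1 included, lacks one. A match is only a run of letters, and a missing match says nothing of binding.

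The members fell into 3 tiers of expression. Per kilobase of merged exons, the mean over 36 libraries was 4219 normalised counts for FOLH1, 2854 for STEAP2 and 2608 for STEAP1. These 3 genes stood at the 99.6, 99.4 and 99.3 percentiles of 29856 genes. CD276 reached 665 per kilobase, ERBB2 477 and ERBB3 416, at percentiles 96.3, 94.4 and 93.5. PSCA reached 45.5 per kilobase, at percentile 66.7. The order was the same with the length of the longest transcript in place of merged exons. In unscaled normalised counts the means were 22509 for FOLH1, 24889 for STEAP2, 4026 for STEAP1, 3648 for CD276, 4924 for ERBB2, 4866 for ERBB3 and 80.1 for PSCA. PSCA was therefore measured with far fewer counts than the other members.

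**Figure D1:**
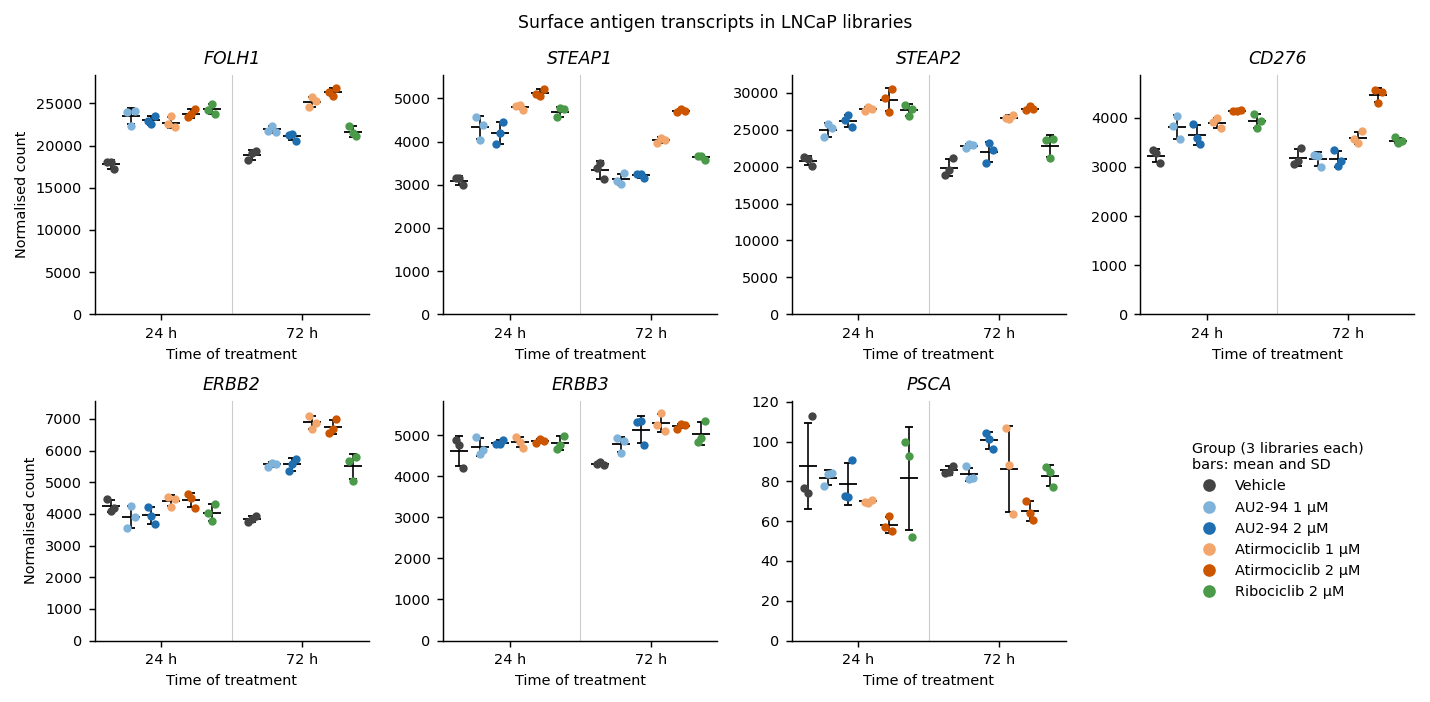
Normalised counts (y axis, linear from 0, a separate scale for each gene) of the 7 surface antigens in each of 36 libraries by time of treatment (x axis), with bars for the mean and SD of 3 libraries. At 24 h all treated libraries of FOLH1, STEAP1, STEAP2 and CD276 sit above all vehicle libraries, and at 72 h all treated libraries of ERBB2, between 5043 and 7104, sit above the vehicle libraries, between 3758 and 3925.

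Some of these counts rest partly on exons that other genes share. PSCA (ENSG00000167653) lies on the plus strand at 8:142670308-142682725 with 4 merged exons. Its exons overlap those of JRK on the opposite strand by 367 bases, 20.8% of the exonic length of PSCA, and JRK averaged 812 normalised counts. Because the strand setting of the counting is not given in the sources used here, reads of PSCA and JRK in that overlap cannot be told apart. The overlap of ERBB2 with MIEN1 was 571 bases, 5.53% of its exons, and with PGAP3 144 bases, 1.40%. For FOLH1, 8.72% of 100-base stretches of its transcripts also occur in FOLH1B (ENSG00000134612), and for STEAP1, 8.7% occur in STEAP1B, so a small part of these 2 genes' reads could have been split between copies. STEAP1B itself held 0 to 6.14 normalised counts per library.

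At 24 h, 4 of the 7 antigens rose under every treatment and the other 3 passed the test under none. FOLH1, STEAP1, STEAP2 and CD276 were the genes that rose, and STEAP1 rose most, by 1.35-fold to 1.65-fold. The question was which antigen transcripts move under AU2-94, atirmociclib or ribociclib. Each treatment was set against vehicle of the same time with limma on log2(normalised count + 1). P-values were adjusted over all 16137 genes tested with the Benjamini-Hochberg method, and a gene was called at an adjusted p of at most 0.05. The paper's counts also required a log2 fold change of at least 1, which no called member reached in any comparison at either time. Of all genes tested, 14.3% were called higher under 1 µM AU2-94, 16% under 2 µM AU2-94, 16.6% under 1 µM atirmociclib, 18.6% under 2 µM atirmociclib and 16.8% under ribociclib, against 4 of 7 members under each.

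FOLH1 held 18003, 18067 and 17193 normalised counts in the vehicle libraries at 24 h. The 15 treated libraries held 22146 to 24887, with a median of 23521, and did not overlap the vehicle libraries. The rise was 0.36 to 0.45 on the log2 scale (SE 0.035, n = 3 per group), that is 1.28-fold to 1.37-fold, with adjusted p from 1.52e-08 to 3.1e-07. The widest gap between agents at one dose, ribociclib above AU2-94, was 0.08 (95% interval 0.00 to 0.15) and did not pass (adjusted p 0.372).

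STEAP1 held 3148, 3158 and 2987 in vehicle. Its treated libraries ran from 3939 to 5228 with a median of 4743, all above vehicle. The log2 change was 0.48 and 0.44 under 1 and 2 µM AU2-94, 0.63 and 0.73 under 1 and 2 µM atirmociclib, and 0.60 under ribociclib (SE 0.049, n = 3 per group). STEAP2, its neighbour, held 21322, 21035 and 20139 in vehicle and 23983 to 30493 in treated libraries, again without overlap. It rose by 0.26 and 0.33 under AU2-94, 0.42 and 0.48 under atirmociclib and 0.41 under ribociclib (SE 0.039). After quantile normalisation the rise of STEAP2 under 1 µM AU2-94 was 0.05 and no longer passed the test (adjusted p 0.443).

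CD276 held 3335, 3279 and 3083 in vehicle and 3477 to 4152 in the treated libraries, with a median of 3917. The treated libraries again lay above vehicle, by the smallest steps of the 4 genes that rose. Its log2 change was 0.24 and 0.18 under AU2-94, 0.27 and 0.36 under atirmociclib and 0.28 under ribociclib (SE 0.052), with adjusted p of 0.00206, 0.015, 0.000503, 2.85e-05 and 0.000339. The call for 2 µM AU2-94 ended without AU2-94 2 µM replicate 1 (0.13, adjusted p 0.0822) or without vehicle replicate 3 (0.14, adjusted p 0.0772), and after scaling to equal library totals (0.14, adjusted p 0.0559).

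The receptor pair and PSCA gave no call at 24 h by limma. ERBB2 held 4476, 4100.4 and 4191 in vehicle and 3549 to 4627 in treated libraries, with overlap. Its log2 differences ran from -0.13 under 1 µM AU2-94, with a 95% interval of -0.27 to 0.01, to 0.06 under 2 µM atirmociclib, with an interval of -0.08 to 0.20. ERBB3 held 4872, 4747 and 4189 in vehicle and 4550.3 to 4987 in treated libraries. Its differences lay between 0.04 and 0.08, and the interval for the larger was -0.03 to 0.19. None of the 10 values of ERBB2 and ERBB3 had an unadjusted p under 0.05.

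PSCA was noisier. Vehicle libraries held 76.8, 74.1 and 113, ribociclib libraries 99.8, 92.7 and 51.9, and libraries given 2 µM atirmociclib 56.9, 62.7 and 54.9. The latter 3 lay below all vehicle libraries, with a log2 difference of -0.56 (SE 0.216, 95% interval -1.02 to -0.11) that had an unadjusted p of 0.0182 and missed the adjusted threshold (adjusted p 0.0518). It passed without vehicle replicate 2 (-0.67, adjusted p 0.0450) and after scaling to equal library totals (-0.64, adjusted p 0.0299). JRK, whose exons PSCA shares in part, was not called under any treatment at either time, with differences of -0.18 to 0.25.

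At 72 h, ERBB2 rose more than any other member under every treatment, and ERBB3 rose with it. FOLH1 and STEAP2 also rose under all 5 treatments, whereas STEAP1 and CD276 rose under atirmociclib and ribociclib and gave no call under AU2-94. In all, 4 members were higher under each dose of AU2-94 and 6 under each dose of atirmociclib and under ribociclib. The share of all 16341 genes called higher was 15.4% under 1 µM and 14.2% under 2 µM AU2-94, 20% under 1 µM and 20.9% under 2 µM atirmociclib, and 15.5% under ribociclib. No member was called lower.

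**Figure D2:**
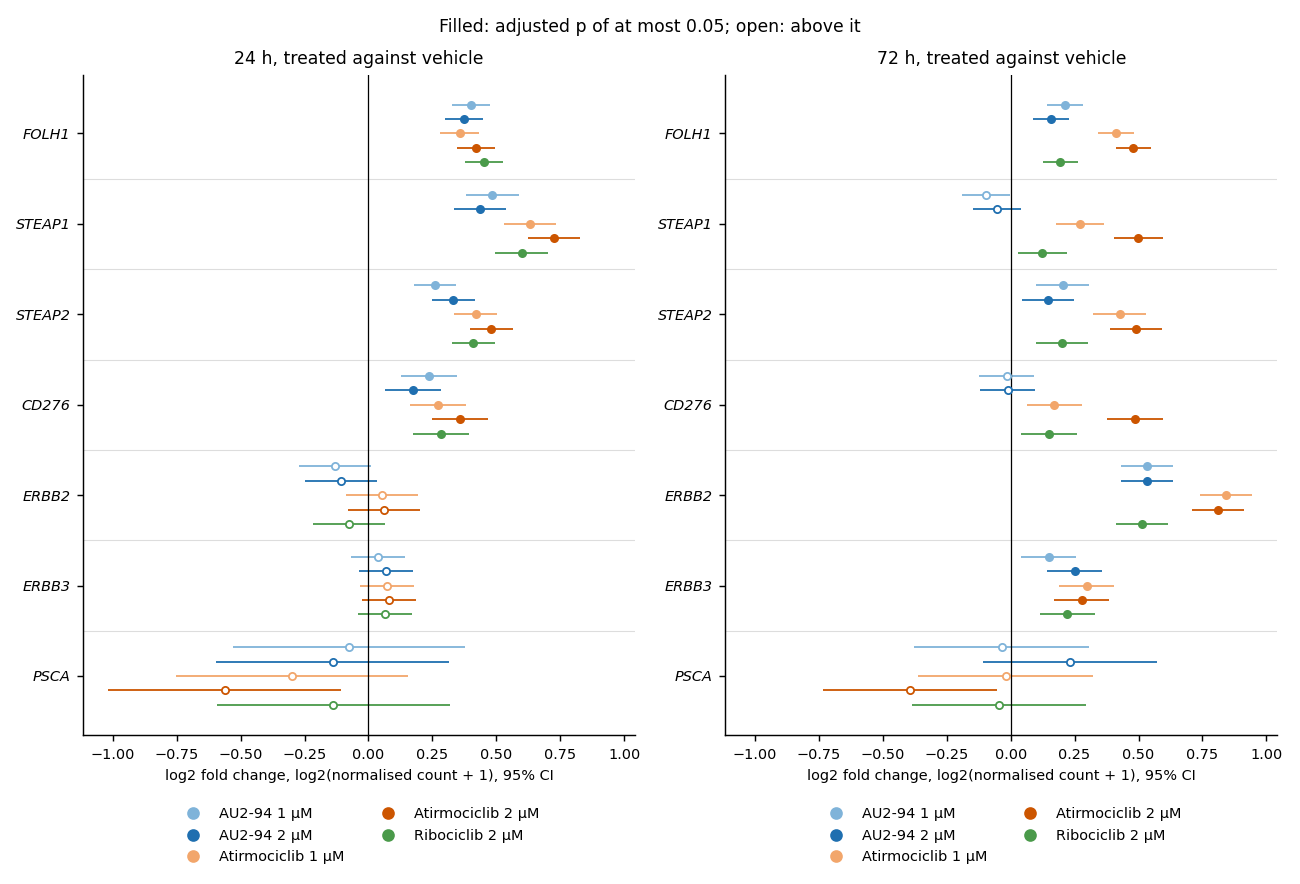
Log2 fold change of each antigen against vehicle at 24 h (left) and 72 h (right), on log2(normalised count + 1), with 95% confidence intervals from limma and colours for the 5 treatments, where filled points have an adjusted p of at most 0.05. ERBB2 moves from values between -0.13 and 0.06 at 24 h to values between 0.52 and 0.84 at 72 h, while STEAP1 and CD276 lie near 0 at 72 h under AU2-94.

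ERBB2 held 3758, 3842 and 3925 normalised counts in vehicle at 72 h. Libraries held 5478, 5623 and 5591 under 1 µM AU2-94 and 5363, 5576 and 5746 under 2 µM AU2-94. Under ribociclib they held 5668, 5043 and 5788. Atirmociclib gave the highest libraries, with 7104, 6694 and 6884 at 1 µM and 6551, 6675 and 6994 at 2 µM, above all libraries of the other agents. Against vehicle this was 1.45-fold for both AU2-94 doses, 1.43-fold for ribociclib and 1.79-fold and 1.75-fold for 1 and 2 µM atirmociclib (log2 0.53, 0.53, 0.52, 0.84 and 0.81, SE 0.048, n = 3 per group). Adjusted p ran from 1.16e-10 to 1.82e-07. Of the overlapping genes, MIEN1 was called higher at 72 h under 2 µM atirmociclib (0.31, adjusted p 0.0190) and was between -0.15 and 0.16 under the other treatments. PGAP3 was not called at 72 h, with values from 0.00 to 0.40. The part of the overlaps in the ERBB2 counts was not tested.

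ERBB3, the neuregulin-binding partner, held 4304, 4352 and 4264 in vehicle at 72 h and 4566 to 5540.4 in treated libraries, with a median of 5154. All treated libraries were above all vehicle libraries. Its log2 rise was 0.15 and 0.25 under 1 and 2 µM AU2-94, 0.30 and 0.28 under atirmociclib and 0.22 under ribociclib (SE 0.051), with adjusted p of 0.0316, 0.00108, 0.000128, 0.000245 and 0.00256. The call for 1 µM AU2-94 ended without AU2-94 replicate 1 or 3 or without vehicle replicate 1, 2 or 3, each time at 0.13 to 0.16 with adjusted p of 0.0562 to 0.114, and with no filter on low values (adjusted p 0.0567) or no trend in the variance (adjusted p 0.0663).

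FOLH1 held 18260, 19106 and 19368 in vehicle at 72 h. It reached 24509 to 26841 under atirmociclib, 20578 to 22354 under AU2-94 and 21071 to 22373 under ribociclib. The treated libraries were again separate from vehicle, and those of atirmociclib were separate from the rest. The log2 rise was 0.41 and 0.48 under 1 and 2 µM atirmociclib, 0.21 and 0.16 under AU2-94 and 0.19 under ribociclib (SE 0.033), with adjusted p of 0.00141 or less.

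STEAP2 held 18902, 19539 and 21130.3 in vehicle. It reached 26407 to 28178 under atirmociclib, 20438 to 23186 under AU2-94 and 21137 to 23719 under ribociclib. 1 treated library, AU2-94 2 µM replicate 1 at 20438, lay within the vehicle range. The log2 rise was 0.43 and 0.49 under atirmociclib (adjusted p 1.24e-06 and 1.76e-07), 0.20 and 0.15 under AU2-94 (0.00356 and 0.0316) and 0.20 under ribociclib (0.00405), with an SE of 0.049. At 2 µM AU2-94 the call ended without AU2-94 replicate 2 or 3 or without vehicle replicate 1 or 2, at 0.11 to 0.13 with adjusted p of 0.092 to 0.159, as well as with no filter (adjusted p 0.0756), no trend (0.0889) or the 2 groups fitted alone (0.0809).

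STEAP1 differed between the agents. Vehicle libraries held 3394, 3510.2 and 3122 at 72 h. Under AU2-94 they held 3096, 3006 and 3270.3 at 1 µM and 3239, 3251 and 3161 at 2 µM, within or below the vehicle range. Under atirmociclib they held 3962, 4091 and 4039.5 at 1 µM and 4683, 4760.2 and 4709.96 at 2 µM, all above vehicle, and under ribociclib 3669.7, 3670.5 and 3578, also above vehicle. The log2 rise was 0.27 and 0.50 under 1 and 2 µM atirmociclib (SE 0.045, adjusted p 9.36e-05 and 4.98e-08). Under AU2-94 the differences were -0.10 (95% interval -0.19 to 0.00, adjusted p 0.113) and -0.05 (-0.15 to 0.04, adjusted p 0.41), and the first passed as lower without vehicle replicate 3 (-0.14, adjusted p 0.0220).

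The rise of STEAP1 under ribociclib at 72 h was weak, at 0.12 with adjusted p 0.0433. It passed neither with the replicate number as a block (adjusted p 0.0558) nor after scaling to equal library totals (0.0628), with no filter (0.0698), with no trend (0.0721) or with the 2 groups fitted alone (0.154). It also ended without ribociclib replicate 1, 2 or 3 or without vehicle replicate 1 or 3, at 0.08 to 0.14 with adjusted p of 0.0576 to 0.231.

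CD276 followed STEAP1. Vehicle libraries held 3069, 3114 and 3388 at 72 h, and AU2-94 libraries 2993 to 3345. Atirmociclib libraries held 3561, 3478 and 3729 at 1 µM and 4571, 4300.1 and 4530.02 at 2 µM, and ribociclib libraries 3601, 3489 and 3523. Both agents lay above vehicle, and 2 µM atirmociclib lay above all other groups of that time. The log2 change was 0.49 under 2 µM atirmociclib (SE 0.052, adjusted p 4.16e-07), 0.17 under 1 µM (adjusted p 0.0133) and 0.15 under ribociclib (adjusted p 0.0334). Under AU2-94 it was -0.02 and -0.01, with 95% intervals of -0.12 to 0.09 and -0.12 to 0.10.

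Both smaller rises of CD276 rested on single libraries. For 1 µM atirmociclib the call ended without atirmociclib replicate 3 or vehicle replicate 1 or 2 (0.14 to 0.15, adjusted p 0.051 to 0.0645) and under equal library totals (0.13, adjusted p 0.0514). For ribociclib it ended without ribociclib replicate 1 or 3 or vehicle replicate 1 or 2 (0.12 to 0.15, adjusted p 0.0663 to 0.126), under equal library totals (0.0501), with no filter (0.0555), with no trend (0.0613) and with the 2 groups fitted alone (0.0841).

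PSCA was not called at 72 h under any treatment. Vehicle libraries held 84.0, 84.7 and 87.9, libraries given 2 µM AU2-94 105, 101 and 96.1, and libraries given 2 µM atirmociclib 70.3, 64.1 and 60.6. The first treatment lay above vehicle and the second below, with log2 differences of 0.23 (95% interval -0.11 to 0.57) and -0.39 (-0.73 to -0.05, unadjusted p 0.0263, adjusted p 0.0619). The latter passed under equal library totals (-0.47, adjusted p 0.0281) and with no trend in the variance (adjusted p 0.0318).

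The next comparison set agents against each other at one dose. At 24 h, 4 of 28 member tests passed, each higher under atirmociclib than under AU2-94. Of all genes, 1.48% were called higher for atirmociclib against AU2-94 at 1 µM and 5.12% at 2 µM, 1.83% for atirmociclib against ribociclib, and 0.0186% for ribociclib against AU2-94. STEAP1 was higher at 2 µM by 0.29 (adjusted p 0.00104). STEAP2 was higher by 0.16 at 1 µM (adjusted p 0.0254) and 0.15 at 2 µM (adjusted p 0.0229), and CD276 by 0.18 at 2 µM (adjusted p 0.033). These last 3 calls were not stable, and each ended with equal library totals, equal upper quartiles, no filter, no trend or the 2 groups fitted alone. STEAP2 at 1 µM also ended without any 1 library other than AU2-94 replicate 2 (0.13 to 0.16, adjusted p 0.0613 to 0.132). STEAP2 at 2 µM ended without replicate 1 or 3 of either agent (0.11 to 0.15, adjusted p 0.0526 to 0.114), and CD276 without any 1 library other than AU2-94 replicate 1 (0.15 to 0.18, adjusted p 0.0718 to 0.122). For ERBB2 the differences were 0.18 (95% interval 0.04 to 0.32, adjusted p 0.149) and 0.17 (0.03 to 0.31, adjusted p 0.129).

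By 72 h the agents had parted, with 17 of 28 member tests passed, 16 of them higher. Atirmociclib at 1 µM exceeded AU2-94 for 5 members where 4.53% of all genes were called higher, and at 2 µM it exceeded AU2-94 for 5 members where 11.1% were. It exceeded ribociclib for 5 members where 4.83% were, while ribociclib exceeded AU2-94 for 1 member where 1.96% were. FOLH1, STEAP1, STEAP2, CD276 and ERBB2 were the 5 members each time. The 1 lower call was PSCA, under 2 µM atirmociclib against AU2-94, where 8.73% of genes were lower.

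Atirmociclib exceeded AU2-94 at 2 µM by 0.55 (SE 0.045, 1.47-fold) for STEAP1 and by 0.50 (SE 0.052, 1.41-fold) for CD276. STEAP2 differed by 0.35, FOLH1 by 0.32 and ERBB2 by 0.28 at that dose, and ERBB3 by 0.03 with a 95% interval of -0.08 to 0.13. At 1 µM the differences were 0.37 for STEAP1, 0.31 for ERBB2, 0.22 for STEAP2, 0.20 for FOLH1 and 0.19 for CD276. ERBB3 differed there by 0.15, with an interval of 0.04 to 0.26 that did not survive adjustment (adjusted p 0.0833). The libraries of the 2 agents did not overlap for FOLH1, STEAP1, STEAP2, CD276 and ERBB2 at either dose. Such separation, here and elsewhere, is a description, since the share of all genes that separate is not given.

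**Figure D3:**
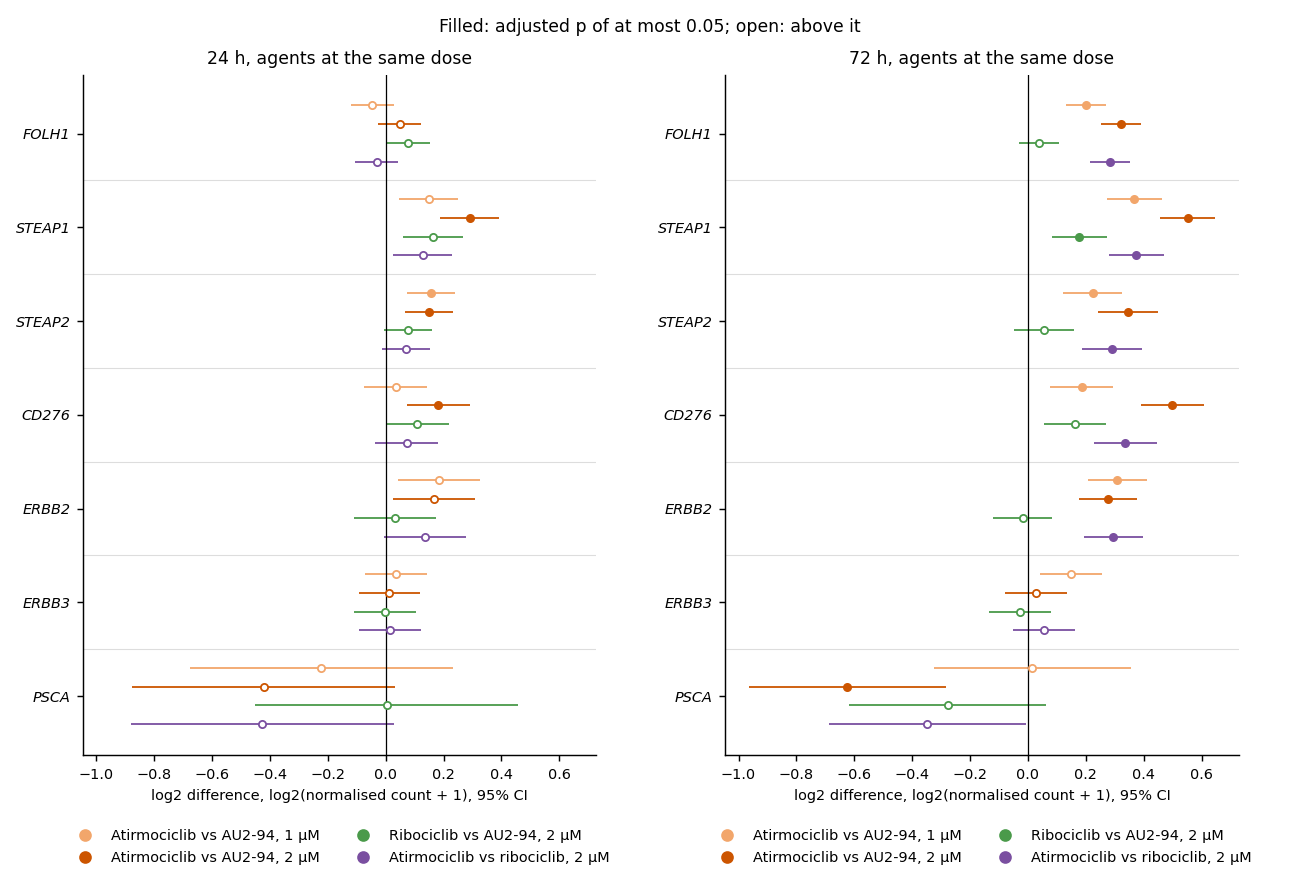
Differences between agents at one dose at 24 h (left) and 72 h (right) for each antigen, as log2 fold change on log2(normalised count + 1) with 95% confidence intervals from limma, where filled points have an adjusted p of at most 0.05. At 72 h atirmociclib lies above AU2-94 at both doses and above ribociclib for FOLH1, STEAP1, STEAP2, CD276 and ERBB2, by up to 0.55 for STEAP1 at 2 µM, while PSCA lies at -0.62 for atirmociclib against AU2-94 at 2 µM.

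The difference of CD276 at 1 µM was the least stable of these. It ended without atirmociclib replicate 1 or 3 or AU2-94 replicate 2 or 3 (0.15 to 0.20, adjusted p 0.0544 to 0.15), and with equal library totals (0.11, adjusted p 0.217), quantile normalisation (0.13, adjusted p 0.143), no filter or no trend. Quantile normalisation also ended the calls for FOLH1 at 1 µM (0.10, adjusted p 0.128) and for STEAP2 at 1 µM (0.12, adjusted p 0.259) and at 2 µM (0.13, adjusted p 0.12). Equal library totals ended the STEAP2 call at 1 µM as well (0.15, adjusted p 0.0836).

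Against ribociclib, 2 µM atirmociclib was higher by 0.37 for STEAP1, 0.34 for CD276, 0.30 for ERBB2 and 0.29 for both FOLH1 and STEAP2. Under quantile normalisation FOLH1 (0.13, adjusted p 0.0503) and STEAP2 (0.13, adjusted p 0.185) no longer passed. Between ribociclib and AU2-94 at 2 µM, ERBB2 differed by -0.02 (95% interval -0.12 to 0.08), ERBB3 by -0.03 (-0.14 to 0.08), FOLH1 by 0.04 (-0.03 to 0.11), STEAP2 by 0.06 (-0.05 to 0.16) and CD276 by 0.16 (0.05 to 0.27, adjusted p 0.0965). STEAP1 alone passed, at 0.18 with adjusted p 0.0373, and that call ended with the replicate block (adjusted p 0.0515), without any 1 of the 6 libraries (0.17 to 0.19, adjusted p 0.0561 to 0.13) and under 6 other alternatives.

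PSCA was lower under 2 µM atirmociclib than under 2 µM AU2-94 at 72 h, with 70.3, 64.1 and 60.6 against 105, 101 and 96.1 normalised counts. The 2 groups did not overlap, and the difference was -0.62 (SE 0.162, 95% interval -0.96 to -0.28, adjusted p 0.00997). Under quantile normalisation it was -0.48 with adjusted p 0.0506. Against ribociclib the difference was -0.35 (-0.69 to -0.01, adjusted p 0.21).

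Differences between doses passed for 2 antigens at 72 h. STEAP1 was higher under 2 µM than under 1 µM atirmociclib by 0.23 (SE 0.045, adjusted p 0.0121) and CD276 by 0.32 (SE 0.052, adjusted p 0.00329), in a comparison that called 1.25% of all genes higher. For both genes the 3 libraries at 2 µM lay above the 3 at 1 µM. The STEAP1 call ended without atirmociclib 1 µM replicate 1 (0.21, adjusted p 0.0679) and under quantile normalisation (0.18, adjusted p 0.0721). ERBB2 differed between those doses by -0.03, with an interval of -0.13 to 0.07. Between the doses of AU2-94 limma called 0 members at 24 h and at 72 h, and 0 had an unadjusted p under 0.05, in comparisons that called 0.409% and 0% of all genes in either direction. The doses of atirmociclib at 24 h gave 0 calls and 0 unadjusted, where 0.0124% of genes were called.

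The effects at the 2 times were then compared within the same fit of 36 libraries and 16850 genes, by subtracting the 24 h effect from the 72 h effect. Vehicle itself gave 0 calls by limma among the 7 members, where 7.5% of genes were called, with 3 members at an unadjusted p under 0.05. These were FOLH1 at 0.09, STEAP1 at 0.11 and ERBB2 at -0.15. ERBB2 passed in vehicle after scaling to equal library totals (-0.20, adjusted p 0.0426), and STEAP2, at -0.07, after quantile normalisation (-0.23, adjusted p 0.00952).

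The effect on ERBB2 grew with time and that on STEAP1 shrank under all 5 treatments. Of 35 tests 18 passed, 7 upward and 11 downward. The 5 tests of a gene share the vehicle libraries of both times and are not independent. The changes of ERBB2 and STEAP1 in vehicle, given above, enter all 5 of their differences. Shares of all genes called in either direction were 21.6% for 1 µM AU2-94, 18.5% for 2 µM AU2-94, 21.9% for 1 µM atirmociclib, 21.6% for 2 µM atirmociclib and 20.2% for ribociclib, against 4, 4, 3, 3 and 4 of 7 members. The change for ERBB2 was 0.67 and 0.64 under AU2-94, 0.79 and 0.75 under atirmociclib and 0.59 under ribociclib (SE 0.084), with adjusted p of 4.84e-06 or less. For STEAP1 it was -0.58 and -0.49 under AU2-94, -0.36 and -0.23 under atirmociclib and -0.47 under ribociclib (SE 0.065), with adjusted p of 0.0106 or less. Both held under every alternative run and without any single library.

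**Figure D4:**
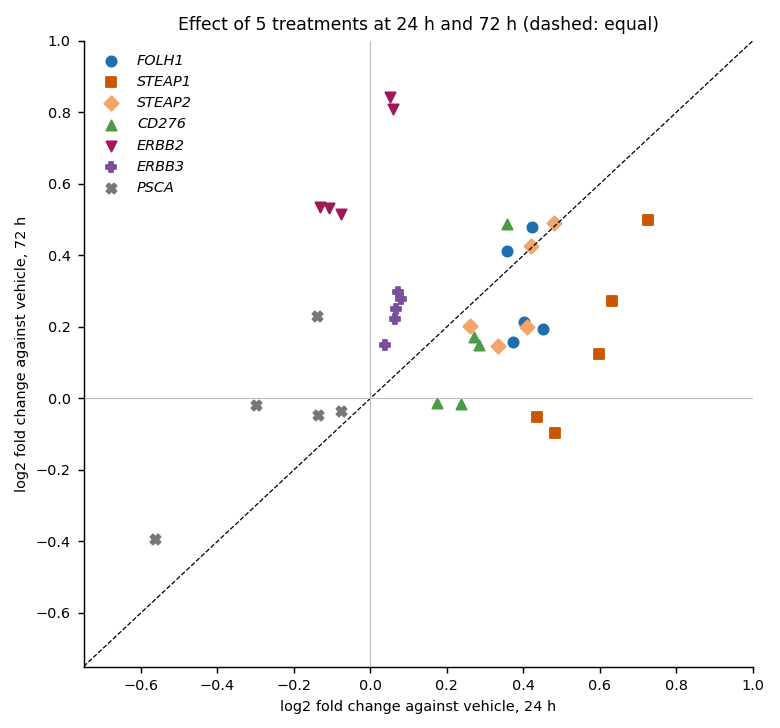
Log2 fold change against vehicle at 24 h (x axis) and at 72 h (y axis), on log2(normalised count + 1), of each antigen under each of 5 treatments, with a dashed line where the effects are equal. ERBB2 and ERBB3 lie above the line under every treatment and STEAP1 lies below it, with the largest fall, -0.58, under 1 µM AU2-94.

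FOLH1 and STEAP2 were called higher at both times under atirmociclib, where the change with time was 0.06 for FOLH1 at either dose and 0.01 for STEAP2, none of them called. After quantile normalisation the change for FOLH1 passed as higher under 1 µM atirmociclib (0.23, adjusted p 0.00173) and 2 µM atirmociclib (0.19, adjusted p 0.00888). The rise of FOLH1 was smaller at 72 h by -0.19 and -0.22 under 1 and 2 µM AU2-94 and by -0.26 under ribociclib, and that of STEAP2 by -0.19 under 2 µM AU2-94 and -0.21 under ribociclib. These 5 calls depended on the scaling: after quantile normalisation FOLH1 turned to 0.07, 0.08 and 0.03, STEAP2 under 2 µM AU2-94 turned to 0.07, and STEAP2 under ribociclib was -0.02, and none of the 5 passed. Scaling to equal library totals ended the call of FOLH1 under 1 µM AU2-94 (-0.12, adjusted p 0.0812) and both calls of STEAP2 (-0.12 and -0.16, adjusted p 0.235 and 0.0925). The call of STEAP2 under AU2-94 also ended without AU2-94 replicate 1 or 2 or vehicle replicate 2 or 3 of 24 h, or AU2-94 replicate 1 or vehicle replicate 3 of 72 h (-0.19 to -0.14, adjusted p 0.0528 to 0.145). That under ribociclib ended without ribociclib replicate 1 or vehicle replicate 3 of 24 h, or ribociclib replicate 2 or vehicle replicate 3 of 72 h (-0.19 to -0.16, adjusted p 0.051 to 0.0759).

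CD276 had a smaller effect at 72 h under 1 µM AU2-94, by -0.25 (adjusted p 0.0111), which under equal library totals was -0.18 with adjusted p 0.0867. ERBB3 had a larger effect at 72 h under 1 µM atirmociclib (0.23, adjusted p 0.0216) and 2 µM atirmociclib (0.20, adjusted p 0.0461). The second of these did not pass with the replicate block (adjusted p 0.0521) and ended without any 1 of the 12 libraries other than vehicle replicate 3 of 24 h (0.15 to 0.21, adjusted p 0.0561 to 0.147). The first ended without atirmociclib replicate 3 or vehicle replicate 1 or 2 of 24 h, or atirmociclib replicate 2 of 72 h (0.18 to 0.21, adjusted p 0.0551 to 0.0804). Under AU2-94 the change for ERBB3 was 0.11 and 0.18 and under ribociclib 0.16, not called, and equal library totals brought 2 µM AU2-94 (0.25, adjusted p 0.013) and ribociclib (0.20, adjusted p 0.0408) past the threshold, as did leaving out vehicle replicate 3 of 24 h (0.25 and 0.22). The change for CD276 under 2 µM AU2-94 was -0.19 (adjusted p 0.0681) and passed without AU2-94 replicate 3 of 24 h or AU2-94 or vehicle replicate 1 of 72 h (-0.23 to -0.21).

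Ratios within a library do not change when all its values are multiplied by a single factor, and are given as a description. Quantile normalisation can change them, and they were not computed after it. ERBB2 to ERBB3 was 0.928 ± 0.0687 (SD, n = 3) in vehicle at 24 h and 0.821 to 0.914 in the treated groups. At 72 h it was 0.892 ± 0.0251 in vehicle, 1.17 and 1.09 under AU2-94, 1.30 and 1.29 under atirmociclib and 1.09 under ribociclib. Every treated library at 72 h stood above 1 and every vehicle library of that time below it. STEAP2 to STEAP1 was 6.73 ± 0.0574 in vehicle at 24 h and 5.68 to 6.27 in treated groups. By 72 h it was 5.97 ± 0.694 in vehicle, 7.32 and 6.83 under AU2-94, 6.61 and 5.91 under atirmociclib and 6.28 under ribociclib. The 7 antigens together made up 0.260% of all normalised counts in vehicle at 24 h and 0.249% at 72 h, and 0.286% to 0.333% in treated groups.

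**Figure D5:**
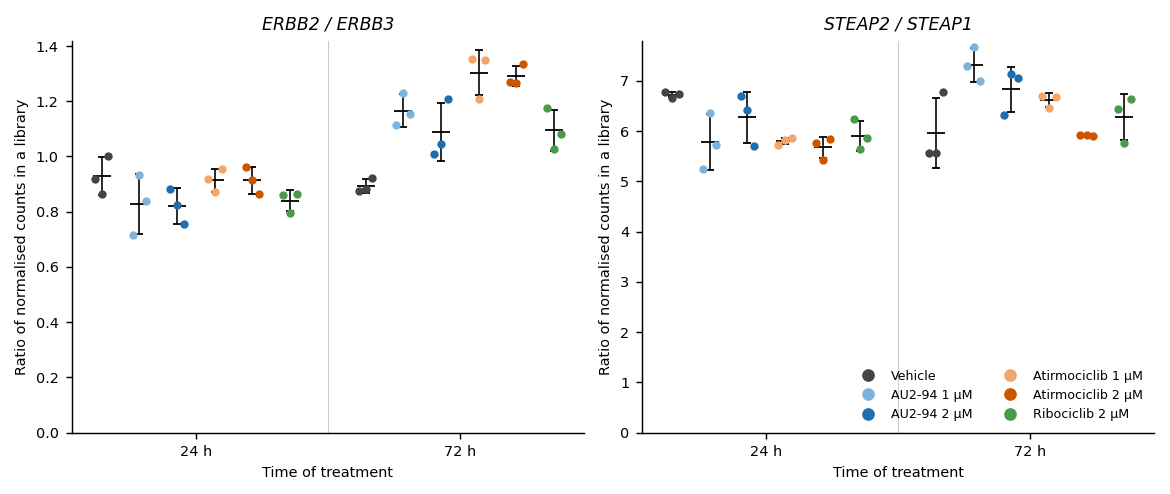
Ratio of normalised counts within each library (y axis, from 0) for ERBB2 to ERBB3 (left) and STEAP2 to STEAP1 (right) by time (x axis), with bars for the mean and SD of 3 libraries per group. The ERBB2 to ERBB3 ratio is 0.892 in vehicle and 1.09 to 1.30 in the treated groups at 72 h.

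Genes related to the ErbB receptors were called about as often as all genes, at 26.3% to 44.4% of those tested, depending on treatment and time. Of 25 listed receptors, ligands and regulators, 18 were tested at 24 h and 19 at 72 h, and 4 to 5 were higher and 0 to 3 lower at 24 h, against 4 to 7 and 0 to 2 at 72 h, depending on the treatment. Of all genes, 27.8% and 30.9% were called in either direction at 24 h under 1 and 2 µM AU2-94, 32% and 34.8% under atirmociclib and 31.9% under ribociclib. The 72 h shares were 32.4%, 29.5%, 39.8%, 40.5% and 30.9% in the same order. LRIG1, a membrane protein that restrains ErbB receptors, rose by 0.26 to 0.54 at 24 h and by 0.68 to 0.85 at 72 h. RNF41, a ubiquitin ligase that turns over ERBB3, rose by 0.25 to 0.43 at 24 h. EGFR was present at 1855 to 5163 normalised counts, ERBB4 at 0.611 to 31.7, and the ERBB3 ligand NRG1 at 0 to 4.92.

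Relatives of CD276, STEAP1 and STEAP2 were read in the same way. Of all genes, 27.8% to 34.8% were called in either direction at 24 h and 29.5% to 40.5% at 72 h. Of 10 B7 ligands 4 were tested at 24 h, of which 1 was higher under every treatment and 0 to 1 lower. The higher gene was CD274, which encodes PD-L1, at 1.55 to 1.90. Of the 3 tested at 72 h, 0 were higher under any treatment and 0 to 1 were lower. Among 12 genes of the STEAP family and metal handling, 2 to 4 were higher and 0 to 2 lower at 24 h, with FTL, ferritin light chain, up by 0.26 to 0.63 and ACO1, an iron sensor, by 0.40 to 0.48. At 72 h 3 to 4 were higher and 3 to 4 lower, and the transferrin receptor TFRC (-0.87 to -0.50), the endosomal ferrireductase STEAP3 (-0.74 to -0.53) and ferritin heavy chain FTH1 (-0.50 to -0.30) fell under all 5 treatments. STEAP3 thus fell at 72 h where STEAP2 rose.

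Of 14 listed paralogs of FOLH1 and genes of folate handling, 10 were tested. At 24 h 3 to 4 were higher and 2 to 3 lower, and at 72 h 2 to 4 were called in each direction. The all-gene shares in either direction were 27.8% to 34.8% at 24 h and 29.5% to 40.5% at 72 h. NAALAD2, a paralog with the same peptidase activity, rose by 1.57 to 2.25 at 24 h. GGH, which trims folate polyglutamates, fell by 0.54 to 0.76 at 24 h, and RIMKLA, which makes the neuropeptide that FOLH1 cleaves, rose by 0.65 to 0.74 at 72 h. In the LY6 family of PSCA, 5 of 12 genes were tested, with 1 higher and 1 to 3 lower at 24 h and 1 to 2 higher and 0 to 2 lower at 72 h, depending on the treatment. CD59, a complement inhibitor, rose by 0.35 to 0.46 at 24 h and 0.24 to 0.51 at 72 h.

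A wider list of 37 other surface antigens under clinical study was read for comparison. Of all genes, 14.3% to 18.6% were called higher at 24 h and 14.2% to 20.9% at 72 h. At 24 h 8 to 10 of 24 tested were higher and 1 to 5 lower, and at 72 h 7 to 11 of 23 were higher and 1 to 3 lower. The growth factor receptor IGF1R rose by 0.83 to 1.24 at 24 h. The prostate transmembrane protein TMEFF2 rose by 0.56 to 0.78 at 24 h and 1.15 to 1.65 at 72 h, the kallikrein KLK2 by 0.48 to 0.77 and 1.05 to 1.40, and the choline transporter SLC44A4 by 0.87 to 1.29 at 72 h. In a list of 14 androgen-regulated and lineage genes, all tested, 12 to 13 were higher and 0 lower at 24 h, and 11 to 13 were higher and 0 to 1 lower at 72 h, with NDRG1 up by 1.58 to 2.28 and 2.13 to 2.38, TMPRSS2 by 0.92 to 1.34 and 1.54 to 2.12, and TRPM8 by 0.91 to 1.25 and 1.97 to 2.08.

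Some neighbouring genes beside the STEAP and ERBB loci are described, chosen after their values were seen. Other neighbours of these loci are not given. CFAP69, 7037 bases beyond STEAP2, rose under all 5 treatments at both times, by 0.92 to 1.80. CLDN12 was between 0.01 and 0.14 at 24 h, with no call, and rose by 0.43 to 0.81 under all 5 treatments at 72 h. Beside ERBB2, STARD3 was not called in any comparison with vehicle (-0.22 to 0.07), and GRB7 was lower at 24 h under 1 µM AU2-94 (-0.99) and 1 µM atirmociclib (-0.85) and was not called at 72 h (0.13 to 0.21). PA2G4, 1032 bases from ERBB3, fell under all 5 treatments at 72 h, by 0.36 to 0.63, where ERBB3 rose.

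Likeness across the study was measured as Pearson r of mean log2 values over the 12 groups, among 12474 genes with a mean of at least 50, and is a description, since the groups share vehicles, line and scaling. The genes most like FOLH1 were SPINT2, PRCP (r = 0.97 each) and HADHA (0.96), and those most like STEAP1 were GATD3, LAMA5-AS1 and APOOL (0.98 each). STEAP2 was matched most closely by IGIP, LRRC41 and ERGIC3 (0.97 each) and XRN2 (0.97) and MFSD3 (0.96) were among the closest to CD276. ERBB2 was matched by SLC38A10 (0.99), COL6A1 and FAM222B (0.98 each), ERBB3 by CBFA2T2 (0.97), SLC44A4 and IQSEC2 (0.95 each), and PSCA by RAD51B (0.94), FAM76B (0.93) and HECA (0.91). Among the members, STEAP1 ran with CD276 (0.94) and STEAP2 (0.93), FOLH1 with STEAP2 (0.87) and ERBB2 with ERBB3 (0.82), while the r of STEAP1 with ERBB2 was -0.09 and that of PSCA with CD276 was -0.84.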

How the data were processed

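RNA-seq of LNCaP cells was analysed in 36 libraries, grouped by the sample labels into 12 groups of 3 biological replicates. The authors aligned reads to GRCh38 with STAR 2.6.1d and used DESeq2; the read counter, annotation release and strand setting are not given in the sources used here. The deposited values are normalised counts, treated here as a signal and not as whole reads. Between 14.2% and 51.7% of a library's low values were whole multiples of its smallest step (within 0.02 of that step), so no count model was run. Replicate SEs describe variation between cultures of 1 line. Totals of 20675156 to 22692555 per library limit low genes such as PSCA most.

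A gene was tested when at least 3 of the libraries fitted held at least 10 normalised counts. Values entered limma 3.58.1 (R 4.3.3) as log2 after a pseudocount of 1, and fold changes are on that scale. Empirical Bayes moderation followed the mean-variance trend. Each time point was fitted as 6 groups, and changes with time came from a fit of all 12. Two-sided p-values were adjusted by Benjamini-Hochberg over all genes in each of 28 contrasts. The steps were tested on simulated data. Positions came from GENCODE 44 and upstream sequence from RefSeq on GRCh38.p14. The alternatives covered pseudocounts of 0.5 and 8, no filter and a mean of at least 100, quantile, equal-total and upper-quartile scaling, a replicate block, the groups of a contrast alone, no variance trend and each library left out.

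The labels give the replicate number as a batch, so an alternative fit took the numbers to pair libraries, as a replicate block. The main fits did not include the replicate number. The deviations of same-numbered libraries from their groups correlated at 0.00179 on average at 24 h (45 pairs, -0.0898 to 0.112). At 72 h the average was -0.00217 (-0.0797 to 0.0502). Libraries of unlike number averaged -0.000884 and 0.00109. The members, the related lists and the tests were chosen with earlier results of these data known. From each related list and time, up to 3 genes were named: those with the largest mean change among genes past the adjusted p in 1 direction in all 5 treatments with a mean of at least 50. For each member up to 3 of the closest genes by likeness were named. Genes that these rules select but that are withheld are not reported here. EGFR, ERBB4 and NRG1 were named outside that rule, for their levels only, and neighbouring genes were chosen after their values were seen.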

Additional observations from a re-analysis of the deposited data

Results flagged for a closer look

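The effect of a treatment differed between 72 h and 24 h, by a test of the difference itself in limma, in 18 of 35 cases, where 18.5% to 21.9% of all genes differed. All 18 are log2 effects at 72 h minus those at 24 h, and plating density, which differed between the times, cannot be told apart from time. The treatments share the vehicle libraries. The calls for ERBB2 and STEAP1 held under every alternative run and without any single library. Each call for the other genes ended under an alternative or an omission, as given above.

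For ERBB2 the difference was 0.67 under 1 µM AU2-94, 0.64 under 2 µM AU2-94, 0.79 under 1 µM atirmociclib, 0.75 under 2 µM atirmociclib and 0.59 under ribociclib. For ERBB3 it was 0.23 under 1 µM atirmociclib and 0.20 under 2 µM atirmociclib.

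For STEAP1 the difference was -0.58 under 1 µM AU2-94, -0.49 under 2 µM AU2-94, -0.36 under 1 µM atirmociclib, -0.23 under 2 µM atirmociclib and -0.47 under ribociclib. For STEAP2 it was -0.19 under 2 µM AU2-94 and -0.21 under ribociclib. For FOLH1 it was -0.19 under 1 µM AU2-94, -0.22 under 2 µM AU2-94 and -0.26 under ribociclib. For CD276 it was -0.25 under 1 µM AU2-94.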

How the results depend on the processing

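Counts of member calls kept within 1.5 times the reported ones under most alternatives. The 4 differences between agents at 24 h became 1 with no filter, 1 with equal library totals, 1 with equal upper quartiles, 1 with no trend, 1 with only the groups compared and 2 with quantile normalisation. The 17 at 72 h became 9 with quantile normalisation, the 2 dose differences at 72 h became 1 with it, and the 0 calls between vehicle times became 1 with quantile normalisation and 1 with equal library totals. Leaving out single libraries gave 19 to 21 calls against vehicle at 24 h, 21 to 26 at 72 h, 2 to 4 and 16 to 17 between agents, 1 to 2 between doses at 72 h and 15 to 19 for changes with time. Of 87 called values, 71 were called without any single library and 16 were lost without at least 1, while 5 of 109 uncalled values were gained.

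Quantile normalisation turned the change with time of FOLH1 to 0.0744 under 1 µM AU2-94, 0.0792 under 2 µM AU2-94 and 0.0293 under ribociclib, and of STEAP2 to 0.0698 under 2 µM AU2-94, and it made the uncalled -0.06 of STEAP2 under 1 µM AU2-94 a call at 0.239. It also made calls of the changes of FOLH1 under 1 and 2 µM atirmociclib, given beside that gene. The cause was not tested. No called difference from vehicle changed sign. Uncalled values that changed sign and stayed uncalled numbered 16 with equal totals, 9 with upper quartiles and 16 with quantile normalisation, and 59 when single libraries were left out. The replicate block paired libraries by replicate number. With it, calls against vehicle numbered 20 at 24 h and 25 at 72 h. They numbered 4 and 16 between agents, 0 and 2 between doses, 0 for vehicle and 17 for changes with time. The block ended 3 calls, given beside STEAP1 and ERBB3, and changed no other.

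Scaling to equal library totals lowered the share of higher genes among those called, against vehicle at 24 h from 51.82% to 39.92% for 1 µM atirmociclib, 53.5% to 37.99% for 2 µM and 52.43% to 40.33% for ribociclib, and at 72 h from 51.52% to 39.34% for 2 µM atirmociclib. For atirmociclib against AU2-94 at 72 h it went from 55.05% to 23.96% at 1 µM and 55.97% to 25.33% at 2 µM, where the median gene shifted by -0.104, for atirmociclib against ribociclib from 52.6% to 25.29%, and in vehicle over time from 51.39% to 27.24%. Differences between agents are therefore relative to the authors' scaling. With 3 libraries per group, differences under about 0.1 on the log2 scale were not called by limma. Several larger ones were not called either, above all for PSCA.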
